A study of Homo sapiens with 8 samples.

Results

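Fatty acid synthesis and desaturation was followed through 9 genes, namely SREBF1, FASN, ACACA, ACLY, SCD, ELOVL6, FADS1, FADS2 and ACSS2. They were selected by gene symbol and are all listed in both deposited tables, which together hold 34164 genes. All libraries came from Kyse510, an established human esophageal squamous cancer cell line, with 1 library for each of 8 conditions. In the pharmacological arm, cells were given vehicle (DMSO), 7 µM SP2509 (an inhibitor of the histone demethylase LSD1), 7 µM UNC0642 (an inhibitor of the histone methyltransferase G9a), or both inhibitors, for 2 days. The series description gives no separate dose for the combination. In the genetic arm, cells with an shRNA against LSD1 or G9a under doxycycline (Dox) control were kept in puromycin for 14 days, and each line was then grown for 2 days with or without Dox. No line with a nonsilencing hairpin and Dox was analysed here, so an effect of Dox itself and an effect of the knockdown cannot be told apart.

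Cells build fatty acids from cytosolic acetyl-CoA. ACLY makes acetyl-CoA from citrate and ACSS2 makes it from acetate, ACACA converts it to malonyl-CoA, and FASN joins these units into palmitate. ELOVL6 lengthens palmitate, SCD introduces the first double bond into saturated chains, and FADS2 and FADS1 desaturate polyunsaturated chains. The transcription factor SREBP1, encoded by SREBF1, is held in the ER membrane by SCAP and INSIG proteins and, once released by proteolysis, activates the genes of this pathway. In carcinomas, where the pathway supplies membrane lipid, FASN is often expressed at high levels.

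Expression was deposited as FPKM (fragments per kilobase of gene, relative to sequencing depth), a level scaled by gene length and library size. Library totals recovered from the FPKM values ranged from 15662035 to 17889466 reads. A gene was called up or down when (FPKM + 1) differed from its control by at least 1.3-fold and either library reached 1 FPKM, a level all 9 genes met in each comparison. With 1 library per condition, no difference has a replicate check, no p-value is given, and the 95% intervals below cover counting error only. In addition, lower RNA per cell and fewer expressing cells cannot be told apart in bulk RNA.

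The knockdown labels were checked on their targets. KDM1A, which encodes LSD1, had 26.0 FPKM without and 6.29 FPKM with Dox in shLSD1 cells. EHMT2, which encodes G9a, had 7.85 FPKM without and 4.76 FPKM with Dox in shG9a cells, a 1.65-fold decrease. This decrease was not particular to the hairpin. EHMT2 also fell 2.07-fold with both inhibitors, from 11.1 to 5.38 FPKM, and was not called with SP2509 or UNC0642 alone. The epithelial marker EPCAM lay between 101 and 206 FPKM over the 8 libraries, KRT5 between 74.6 and 734, and TP63 between 18.3 and 127. DSG3 lay between 5.57 and 28.6 FPKM, KRT14 between 1.10 and 10.1, and KRT6A between 0.676 with vehicle and 20.0 with UNC0642. SOX2, a squamous lineage factor, moved in the same directions as most of the 9 genes, with 18.3 FPKM in vehicle cells and 0.313, 4.94 and 0.636 under SP2509, UNC0642 and the combination. With Dox it went from 5.24 to 20.1 FPKM in shLSD1 cells and from 5.99 to 38.8 in shG9a cells. KRT5 and TP63 instead rose with SP2509, from 427 to 734 and from 79.1 to 127 FPKM. With both inhibitors they were at 163 and 18.3 FPKM. TP63 fell with Dox from 41.9 to 32.6 and from 40.5 to 31.8 FPKM in the shLSD1 and shG9a lines. KRT5 fell with Dox from 188 to 74.6 FPKM in shLSD1 cells and rose from 177 to 312 in shG9a cells. The leukocyte markers PTPRC, CD3E and CD68 summed to at most 0.117 FPKM and the hepatocyte markers ALB and APOA1 to at most 0.0342, with APOA1 not listed and ALB and CD3E listed in the knockdown table only. The adipocyte markers PLIN1 and FABP4 summed to at most 0.889 FPKM, with ADIPOQ not listed. The fibroblast markers COL1A1, COL3A1 and PDGFRB summed to between 3.12 and 6.71 FPKM, mostly from COL1A1. The endothelial markers PECAM1 and CDH5 summed to between 3.28 and 14.0 FPKM, nearly all from CDH5, and were highest in the induced shLSD1 library and next highest with both inhibitors. Their part in the results was not tested.

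The 9 genes were mostly lower with SP2509 and mostly higher with Dox. With SP2509, 8 of the 9 were down and 0 were up (39.9% and 21.0% of all genes tested), whereas with Dox 7 of 9 were up in shLSD1 cells (24.8% of all genes) and 7 of 9 in shG9a cells (32.9%). FASN showed the widest range, 6.96-fold lower with SP2509 than with vehicle and 2.57-fold higher with than without Dox in shG9a cells. With UNC0642 2 of 9 were down (16.9% of all genes), and with both inhibitors 7 of 9 were down (31.7%).

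**Figure D1:**
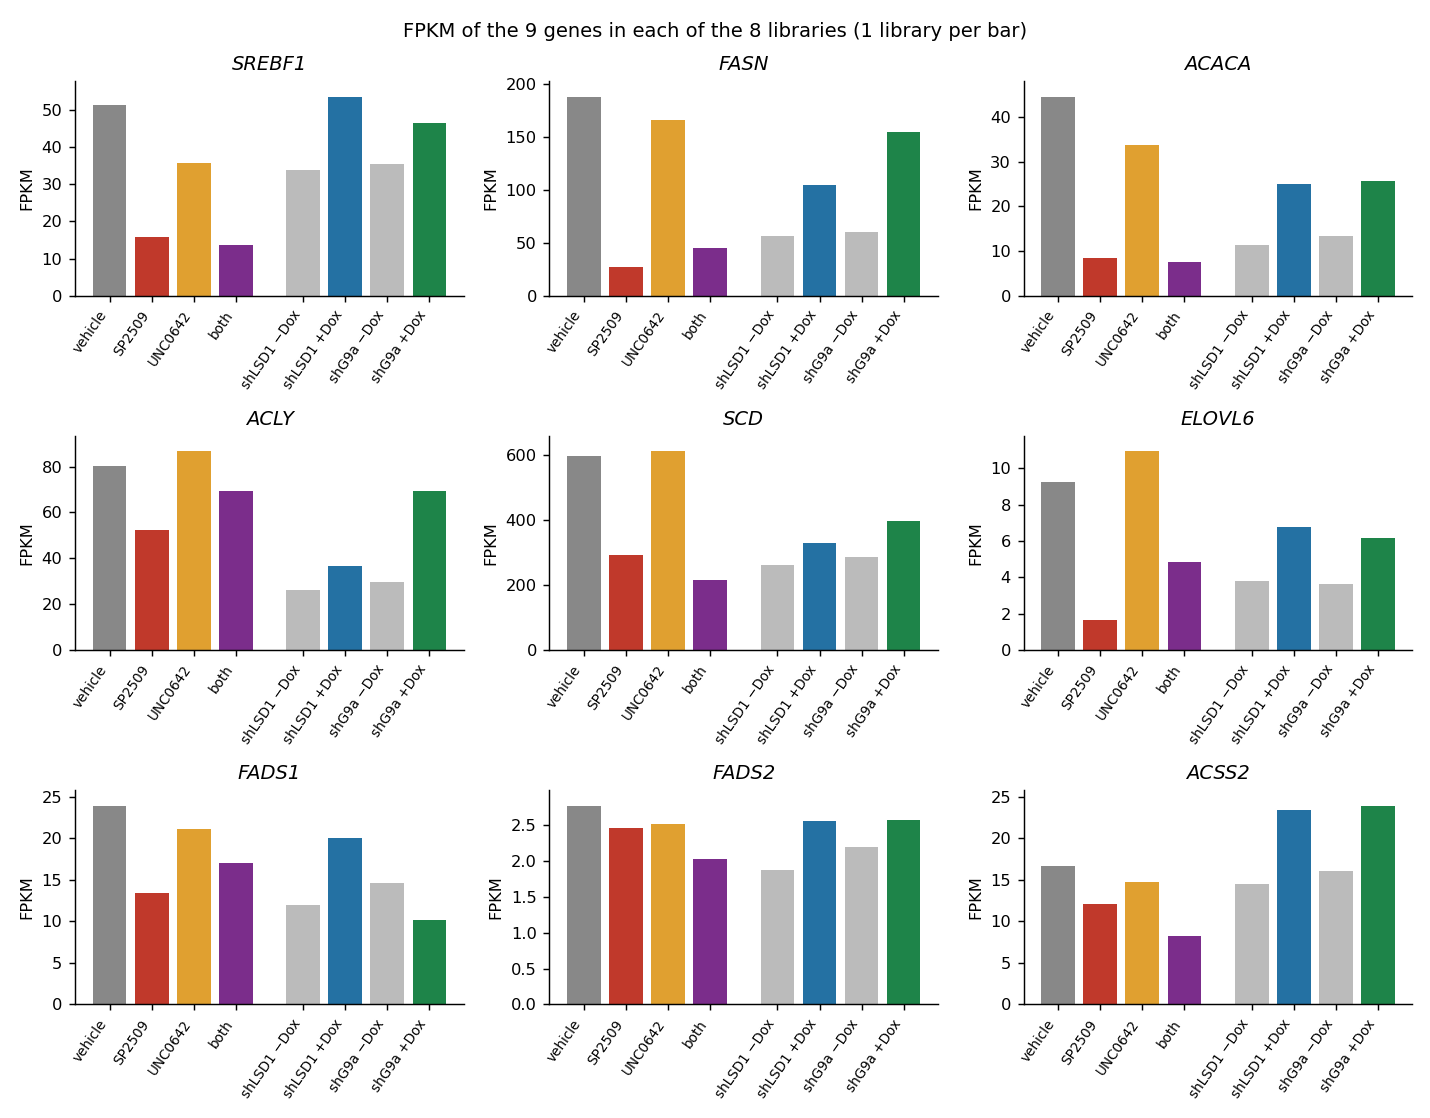
FPKM (vertical axis, linear and starting at 0) of the 9 genes in the 8 libraries, each bar being 1 library, so that there is no error bar. The bars of SP2509 and of both inhibitors stand below vehicle in all 9 panels, and the bar with Dox stands above the bar without Dox in all panels except FADS1 in shG9a cells.

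Promoters of the 9 genes were looked up because SREBP proteins act on promoters together with partner factors, among them NF-Y, which binds CCAAT. RefSeq promoters (build GRCh38.p14) were found for 8 of the 9 genes, all except FASN, and the 250 bases before each start site were searched on both strands. SCD and ACLY are printed as promoters with 2 CCAAT matches each, and SREBF1 as the regulator, whose promoter has 0. Capitals mark CCAAT or its reverse complement ATTGG.
SCD promoter, chr10:100346983-100347232, plus strand: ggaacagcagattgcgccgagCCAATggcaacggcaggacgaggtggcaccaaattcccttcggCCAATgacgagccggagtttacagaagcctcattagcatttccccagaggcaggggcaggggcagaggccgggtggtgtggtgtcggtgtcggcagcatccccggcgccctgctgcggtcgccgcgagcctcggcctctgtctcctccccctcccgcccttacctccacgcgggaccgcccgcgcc
ACLY promoter, chr17:41919023-41919272, minus strand: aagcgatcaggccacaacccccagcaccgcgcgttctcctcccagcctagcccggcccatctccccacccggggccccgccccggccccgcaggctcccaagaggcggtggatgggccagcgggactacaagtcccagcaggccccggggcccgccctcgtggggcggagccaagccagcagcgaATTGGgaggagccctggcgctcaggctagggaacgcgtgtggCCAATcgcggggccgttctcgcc
SREBF1 promoter, chr17:17836987-17837236, minus strand: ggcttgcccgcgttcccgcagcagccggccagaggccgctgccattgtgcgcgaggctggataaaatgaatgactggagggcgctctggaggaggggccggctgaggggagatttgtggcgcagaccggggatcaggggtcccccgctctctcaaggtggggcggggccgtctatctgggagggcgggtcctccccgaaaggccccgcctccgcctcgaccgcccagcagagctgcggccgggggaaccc
Counted from the start site, the matches begin at -229 and -186 in SCD and at -65 and -23 in ACLY. A match is a description of the letters and not of binding. CCAAT was present in at least 1 promoter of 4 of the 8 genes (SCD, ACACA, ACLY and ACSS2) and in 32.0% of 35116 RefSeq promoters. The sterol regulatory element TCACNCCAC was found in 0 of the 13 promoters of the 8 genes and in 0.883% of all promoters, and the E-box CACGTG in 0 and 6.34%. The DR4 repeat, the element of LXR and RXR, was in 0 of the 13 and in 0.0769% of all. GGGCGG, the GC box bound by SP1, was in at least 1 promoter of all 8 genes and in 42.6% of all promoters. Several of these genes have more than 1 promoter in the table, whereas the background counts single promoters, so the shares per gene and per promoter are not on the same footing.

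SREBF1 (ENSG00000072310) lies on the minus strand of chromosome 17 from 17810399 to 17837002 (GRCh38). It measured 51.4 FPKM in vehicle cells, 15.7 under SP2509, 35.8 under UNC0642 and 13.6 under the combination. In the shLSD1 line it had 33.8 FPKM without and 53.6 with Dox, and in shG9a cells 35.6 and 46.7. All 3 inhibitor libraries were therefore below vehicle, and both induced libraries were above their own controls. SREBF1 fell 3.27-fold with SP2509 (95% interval 3.11 to 3.43), 1.43-fold with UNC0642 (1.38 to 1.49) and 3.77-fold with both inhibitors (3.58 to 3.98). It rose 1.59-fold in shLSD1 cells (1.53 to 1.65) and 1.31-fold in shG9a cells (1.26 to 1.36), the latter at the edge of the threshold and lost when ratios were centred on the median of all genes. Of its exonic bases, 6.75% overlap RAI1 on the opposite strand, and the sources used here do not say if counting used strand.

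The enzymes that supply acetyl-CoA changed least with SP2509 among the called genes. ACLY (ENSG00000131473, chromosome 17 from 41866908 to 41930542) measured 80.1 FPKM in vehicle cells, 52.4 under SP2509, 86.6 under UNC0642 and 69.4 under the combination. It had 26.0 and 36.7 FPKM without and with Dox in shLSD1 cells, and 29.8 and 69.5 FPKM in shG9a cells. ACLY thus fell 1.53-fold with SP2509 (1.47 to 1.59), stayed within the threshold with UNC0642 and with both inhibitors, and rose 1.41-fold (1.34 to 1.49) and 2.33-fold (2.22 to 2.44) in the shLSD1 and shG9a lines, respectively. Its log2 ratio in shLSD1 cells, 0.48, was 0.37 when centred and 0.33 with TMM scaling (trimmed mean of the ratios), below the threshold.
ACSS2 (ENSG00000131069, chromosome 20 from 34872146 to 34927962) measured 16.7 FPKM in vehicle cells, 12.1 under SP2509, 14.7 under UNC0642 and 8.22 under the combination. It had 14.5 and 23.4 FPKM without and with Dox in shLSD1 cells, and 16.1 and 23.9 FPKM in shG9a cells. The combination library was the lowest of the 8 and the 2 induced libraries were the highest. The decrease with SP2509 was 1.37-fold (1.27 to 1.49) and was lost when ratios were centred on the median of all genes, whereas that with both inhibitors was 2.03-fold (1.85 to 2.22). ACSS2 rose 1.61-fold in shLSD1 cells and 1.49-fold (1.39 to 1.59) in shG9a cells, where the call was lost with TMM scaling.

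On the (FPKM + 1) scale, the core synthesis enzymes FASN and ACACA showed the largest decreases with SP2509 and with both inhibitors. On the plain FPKM ratio with SP2509, ELOVL6 fell more than ACACA, 5.65-fold against 5.31-fold. FASN (ENSG00000169710, chromosome 17 from 82078333 to 82098332) measured 187 FPKM in vehicle cells, 26.9 under SP2509, 165 under UNC0642 and 45.0 under the combination. It had 55.8 and 105 FPKM without and with Dox in shLSD1 cells, and 60.0 and 154 FPKM in shG9a cells. The estimated reads were 27479 with vehicle and 4487 with SP2509, a 6.96-fold decrease (6.75 to 7.19). Of the 13342 genes tested with SP2509, FASN held rank 37 from the lowest log2 ratio. FASN also fell 4.16-fold with both inhibitors (4.05 to 4.27) and rose 1.87-fold (1.83 to 1.92) and 2.57-fold (2.51 to 2.63) in the shLSD1 and shG9a lines.
ACACA (ENSG00000278540, chromosome 17 from 37084988 to 37406818) measured 44.5 FPKM in vehicle cells, 8.38 under SP2509, 33.8 under UNC0642 and 7.48 under the combination. It had 11.4 and 25.1 FPKM without and with Dox in shLSD1 cells, and 13.3 and 25.8 FPKM in shG9a cells. It ranked 96 of 13342 from the lowest with SP2509 and 47 of 13907 with both inhibitors, where it was 5.31-fold (5.06 to 5.58) and 5.95-fold (5.65 to 6.28) below vehicle. ACACA was the most raised of the 9 genes in shLSD1 cells (2.21-fold, 2.11 to 2.31), and the decrease with UNC0642 was 1.32-fold (1.28 to 1.36), at the edge of the threshold and lost with TMM scaling (-0.37 on the log2 scale).

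ELOVL6 and SCD, which act on the palmitate made by FASN and on the stearate formed from it, were down with SP2509 alone and with both inhibitors. ELOVL6 (ENSG00000170522, chromosome 4 from 110045846 to 110199199) measured 9.21 FPKM in vehicle cells, 1.63 under SP2509, 10.9 under UNC0642 and 4.82 under the combination. It had 3.82 and 6.75 FPKM without and with Dox in shLSD1 cells, and 3.65 and 6.18 FPKM in shG9a cells. With SP2509 it was 5.65-fold below vehicle, with a wide interval (4.87 to 6.58), and 212 of its reads were in that library.
SCD (ENSG00000099194, chromosome 10 from 100347124 to 100364834) was the most highly expressed of the 9 genes in every library. It measured 598 FPKM in vehicle cells, 291 under SP2509, 611 under UNC0642 and 217 under the combination. It had 261 and 330 FPKM without and with Dox in shLSD1 cells, and 287 and 398 FPKM in shG9a cells. SCD fell 2.05-fold with SP2509 (2.02 to 2.08) and 2.76-fold with both inhibitors (2.71 to 2.80). It rose 1.39-fold in shG9a cells (1.37 to 1.41), a call that was lost when centred (log2 ratio 0.33) and with TMM scaling (0.28), and its ratio of 1.27 in shLSD1 cells did not reach the threshold.

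FADS1 and FADS2 are neighbours on chromosome 11, and FADS1 departed in direction from most of the other genes only in shG9a cells. FADS1 (ENSG00000149485, minus strand from 61799625 to 61829318) measured 23.9 FPKM in vehicle cells, 13.4 under SP2509, 21.1 under UNC0642 and 17.1 under the combination. It had 11.9 FPKM without and 20.1 with Dox in shLSD1 cells, and 14.6 without but 10.1 with Dox in shG9a cells. FADS1 was therefore the only member called down with Dox in either line, 1.44-fold lower in shG9a cells (1.35 to 1.53), while it was 1.68-fold higher in shLSD1 cells (1.60 to 1.78). The decrease was not called when the mean of the 2 uninduced libraries was the control. FADS2 (ENSG00000134824, plus strand from 61792980 to 61867354) was the least expressed, between 1.88 and 2.77 FPKM over the 8 libraries. It passed the threshold in none of the 5 comparisons, where on the log2 scale its ratio lay between -0.32 and 0.31, and its counting intervals included 1 with SP2509 and with UNC0642. At this level the pseudocount matters: with 0.1 FPKM in place of 1, FADS2 was called down with both inhibitors (-0.43) and up in shLSD1 cells (0.43). With TMM scaling its ratio turned to 0.08 with SP2509 and to -0.03 in shG9a cells. FADS1 and FADS2 share 490 exonic bases on opposite strands (4.79% and 4.64% of their exonic bases), where reads cannot be assigned without strand.

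**Figure D2:**
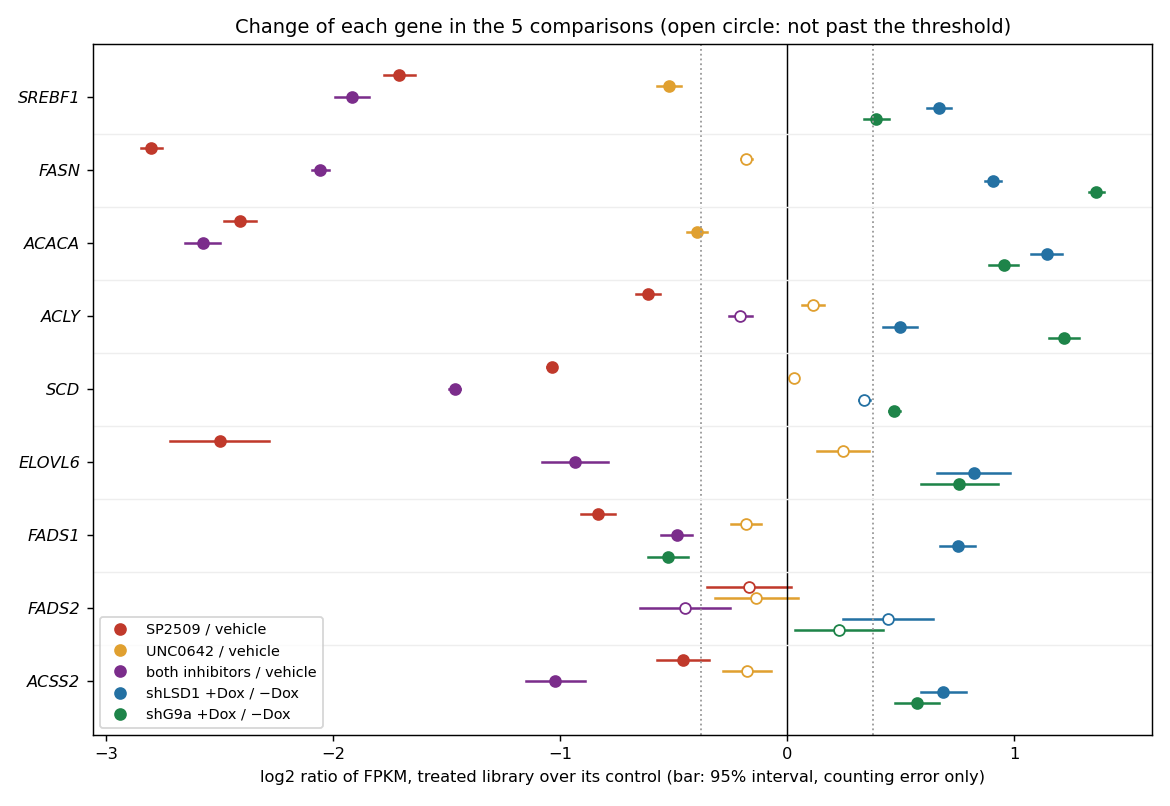
Log2 ratio of FPKM (no pseudocount, horizontal axis) for the 9 genes, with 1 color per comparison, bars for the 95% counting interval, dotted lines at 1.3-fold, and open circles for genes that were not called on the (FPKM + 1) scale. Points for SP2509 lie left of 0 for all 9 genes (FADS2 turns to 0.08 with TMM scaling), and points for the shLSD1 line lie right of 0 for all 9.

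The counts were read against all genes tested. With SP2509, 8 of the 9 genes were down and 39.9% of 13342 genes were down, and 0 of the 9 were up against 21.0%. The median log2 ratio of the 9 genes was -1.03, against -0.21 over all genes tested. For UNC0642, 2 of 9 were down against 16.9% of 13244 genes and 0 were up against 18.2%, and the median was -0.17 against -0.01. For both inhibitors, 7 of 9 were down against 31.7% of 13907 genes and 0 were up against 31.4%, with a median of -0.94 against -0.02. The 3 inhibitor comparisons share the vehicle library.
In the shLSD1 line, 7 of 9 were up against 24.8% of 12970 genes and 0 were down against 12.3%, and the median log2 ratio was 0.65 against 0.13. In the shG9a line, 7 of 9 were up against 32.9% of 13080 genes and 1 was down against 17.6%, with a median of 0.54 against 0.18. Genes at 5 FPKM or more in both libraries had a median log2 ratio of -0.09 with SP2509, 0.11 in shLSD1 cells and 0.14 in shG9a cells, and relative to these shifts the medians of the 9 genes were -0.94, 0.54 and 0.40. TMM placed the shifts at -0.20, 0.15 and 0.19. After TMM scaling, 29.8% of all genes were down with SP2509, 15.2% were up in shLSD1 cells and 19.3% were up in shG9a cells, and the genes called among the 9 were 7 down, 6 up and 4 up, respectively.

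**Figure D3:**
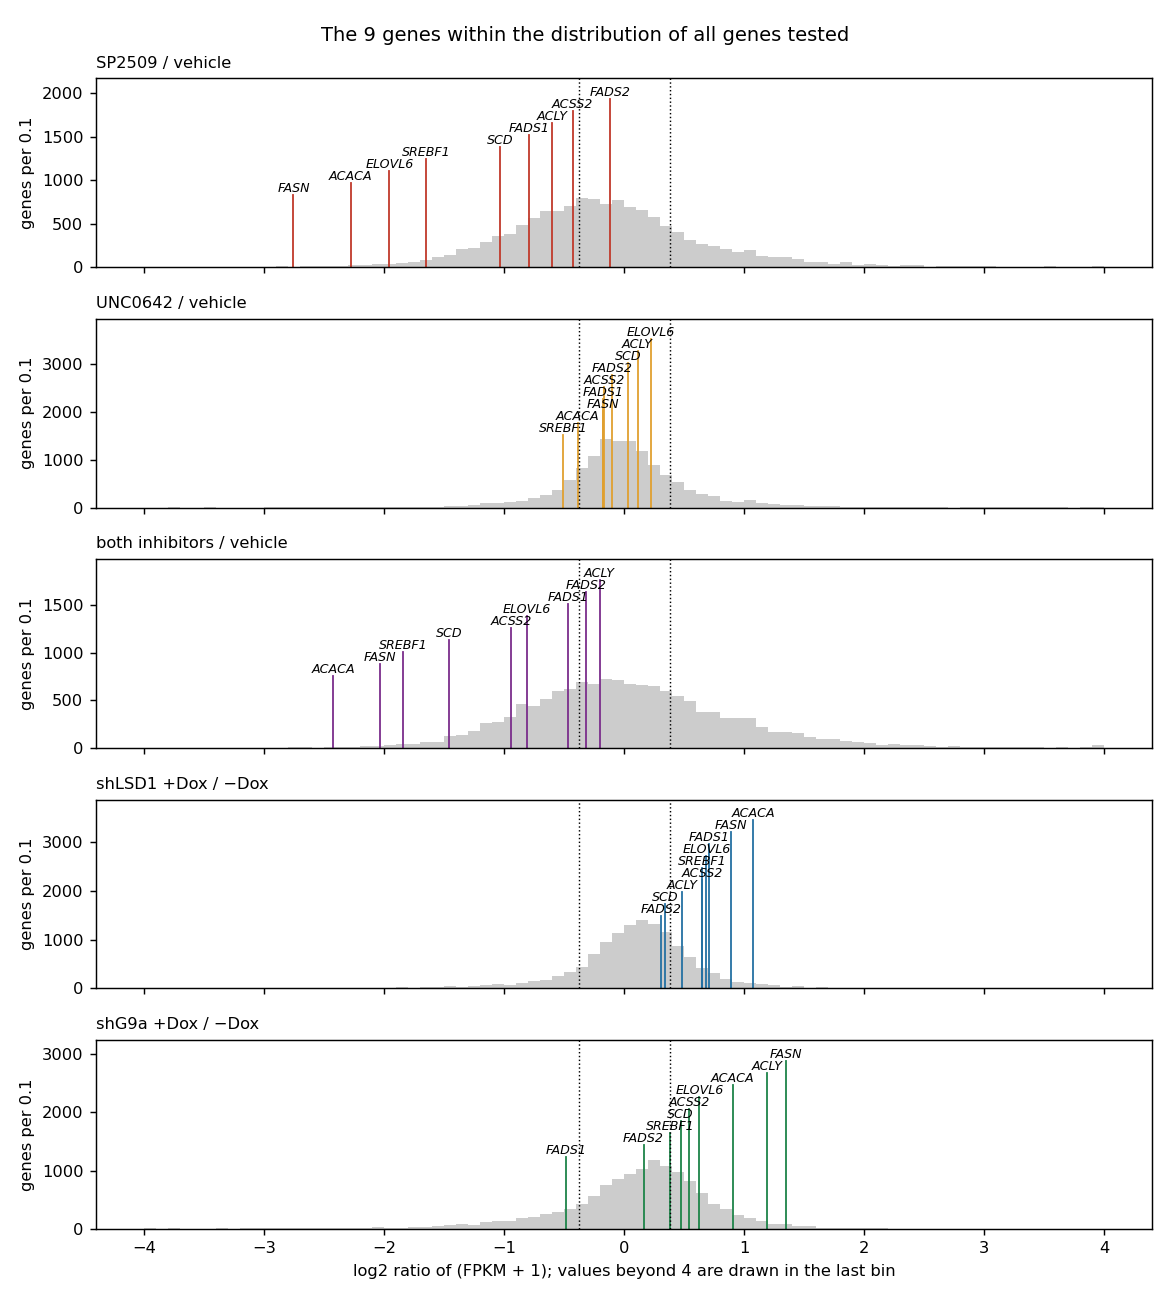
Number of genes (vertical axis) per 0.1 of log2 ratio of (FPKM + 1) (horizontal axis) for all genes tested in each comparison, with a labelled line for each of the 9 genes and dotted lines at 1.3-fold. FASN, ACACA, ELOVL6 and SREBF1 lie in the left tail with SP2509, all 9 genes lie between -0.51 and 0.22 with UNC0642, and FASN, ACLY and ACACA lie farthest right in shG9a cells.

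The reversal between SP2509 and the knockdowns was counted gene by gene, since these comparisons share no library. FASN, ACACA, ACLY, ACSS2, ELOVL6 and SREBF1 were down with SP2509 and up with Dox in both lines, which is 6 of the 9 genes. Of 11520 genes tested in all 3 comparisons, 1010 showed that pattern (8.77%). When the ratios were centred on the median, 3 of the 9 genes (FASN, ACACA and ELOVL6) and 4.57% of all genes kept it, and with TMM scaling the same 3 and 3.45% did. For the shLSD1 line alone 7 of 9 genes were reversed against 14.3% of all genes, and for the shG9a line alone 7 of 9 against 16.7%. After centring, the counts were 5 of 9 against 8.95% and 4 of 9 against 10.2%, and with TMM scaling 5 of 9 against 7.26% and 4 of 9 against 7.73%. SP2509 and shLSD1 address the same enzyme, and 5 genes (FASN, ACACA, ELOVL6, SREBF1 and FADS1) had calls of opposite sign under all 3 scalings.

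The 2 arms did not start from the same level. Vehicle cells had 3.24 times the mean FPKM of the 2 uninduced lines for FASN, 3.61 times for ACACA, 2.87 times for ACLY, 2.47 times for ELOVL6 and 2.18 times for SCD, against a median of 1.07 over 5687 genes with at least 5 FPKM in these 3 libraries. For FADS1 it was 1.80 times, for SREBF1 1.48, for FADS2 1.36 and for ACSS2 1.09. The 2 tables were deposited separately, and these ratios set levels across them without a test. With Dox, FASN reached 55.8% of its vehicle level in shLSD1 cells and 82.3% in shG9a cells, and ACACA reached 56.3% and 57.9%. SREBF1 reached 104% and 90.9%, and ACSS2 exceeded vehicle in both, at 140% and 143%. Together the 9 genes took 0.680% of all reads with vehicle and 0.272% and 0.300% in the uninduced shLSD1 and shG9a lines, which is close to the 0.256% with SP2509. With Dox their share was 0.410% and 0.496%.

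The uninduced libraries of the 2 lines show how far a pair of libraries with neither Dox nor inhibitor lies apart. None of the 9 genes passed the threshold between them, against 3.04% of 12449 genes higher and 4.51% lower in shG9a cells. The log2 ratio of the 9 genes lay between -0.05 (ELOVL6) and 0.27 (FADS1), and 8 of them were on the higher side in the uninduced shG9a line. The difference of 0.27 for FADS1 compares with changes of 0.71 and -0.49 with Dox in the 2 lines.

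With both inhibitors, the 9 genes did not all lie on the same side of SP2509 alone. Relative to SP2509 alone, ELOVL6 was 2.96-fold higher with both inhibitors (2.52 to 3.47), FASN 1.67-fold higher (1.61 to 1.74) and ACLY 1.32-fold higher (1.28 to 1.38). SCD was 1.34-fold lower (1.32 to 1.37) and ACSS2 1.48-fold lower (1.35 to 1.62), and the other 4 genes stayed within the threshold. Over all 13658 genes tested, 41.8% were higher and 24.8% were lower in the combination than with SP2509, so 3 higher and 2 lower of 9 is near the background. Genes at 5 FPKM or more in both libraries had a median log2 ratio of 0.12 here, and TMM placed the shift at 0.16. The log2 ratio of ACLY, 0.40, lies close to the threshold, and the calls of this comparison were not repeated after scaling. Relative to UNC0642 alone, 6 of 9 were lower with both inhibitors and 0 were higher, against 27.1% and 27.7% of 13637 genes.

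The balance between the enzymes also shifted. SCD had 3.19 times the FPKM of FASN with vehicle and 10.8 times with SP2509. With both inhibitors the ratio was 4.81, and in the shLSD1 and shG9a lines it went from 4.67 to 3.16 and from 4.78 to 2.58 with Dox. FASN had 2.34 times the FPKM of ACLY with vehicle, 0.514 times with SP2509 and 0.649 times with both inhibitors. The FADS1 to FADS2 ratio was 8.62 with vehicle and 5.43 with SP2509, and was lowest in the induced shG9a library, at 3.94.

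The genes that govern SREBP processing were examined as a list of 12. INSIG1, an SREBP target that retains SREBP in the ER, measured 26.1 FPKM in vehicle cells, 14.8 under SP2509, 34.5 under UNC0642 and 42.2 under the combination. It had 19.7 and 50.2 FPKM without and with Dox in shLSD1 cells, and 21.3 and 50.8 FPKM in shG9a cells. INSIG2, its paralog with the same retention function, measured 6.61 FPKM in vehicle cells, 19.6 under SP2509, 16.5 under UNC0642 and 21.5 under the combination, and with Dox it fell from 24.0 to 6.48 FPKM in shLSD1 cells and from 22.6 to 6.84 in shG9a cells. INSIG2 was thus up in all 3 inhibitor comparisons and down in both knockdowns, the reverse of FASN with SP2509 and with Dox, whereas INSIG1 followed FASN with SP2509 and with Dox but was up with both inhibitors.
SCAP, the SREBP escort, named here after its values were seen, was down with SP2509 (11.7 to 7.95 FPKM) and with both inhibitors (7.97 FPKM), and was not called in either line. SREBF2, the regulator of cholesterol genes, was called only with both inhibitors, where it fell from 57.7 to 37.5 FPKM. RXRA, the partner of the lipid-sensing receptor LXR, fell from 25.8 to 9.13 FPKM with SP2509 and to 10.2 with both inhibitors. NR1H2, which encodes LXR beta, rose from 13.2 to 23.7, 17.6 and 30.4 FPKM with SP2509, UNC0642 and both inhibitors, and from 29.2 to 43.8 FPKM in shLSD1 cells. MBTPS2, a protease that releases SREBP, fell from 6.33 to 1.61 FPKM with both inhibitors and rose from 3.25 to 4.84 FPKM in shLSD1 cells. MLX rose with SP2509 and its partner MLXIPL fell in shG9a cells, with log2 ratios of 0.43 and -0.73. In total, 3 of 12 were up and 4 down with SP2509, 3 up and 0 down with UNC0642, 3 up and 5 down with both inhibitors, 3 up and 1 down in shLSD1 cells, and 1 up and 2 down in shG9a cells. With SP2509 these shares are near those of all genes (21.0% up and 39.9% down), and the list median was -0.19 against -0.21 over all genes. The all-gene shares up and down were 18.2% and 16.9% with UNC0642, 31.4% and 31.7% with both inhibitors, 24.8% and 12.3% in shLSD1 cells, and 32.9% and 17.6% in shG9a cells, and the counts of the lists that follow stand against the same shares.

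The list of genes that assist synthesis, supply citrate and NADPH or act in mitochondrial fatty acid synthesis was mostly down with SP2509. Of 11 tested, 9 were down and 0 were up with SP2509 (median log2 ratio -1.29, against -0.21 over all genes, of which 39.9% were down), and with both inhibitors 8 of 12 were down and 1 was up. MID1IP1, a protein that activates acetyl-CoA carboxylase, went from 28.1 to 5.71 FPKM with SP2509 and from 22.8 to 56.1 FPKM with Dox in shLSD1 cells. It also rose from 26.9 to 40.3 FPKM in shG9a cells and fell to 17.9 FPKM both with UNC0642 and with both inhibitors. IDH1, an NADPH source, fell from 90.1 to 26.6, 61.6 and 49.6 FPKM with SP2509, UNC0642 and both inhibitors, and rose from 91.2 to 154 FPKM in shLSD1 cells and from 99.0 to 134 in shG9a cells. ME1, the malic enzyme, fell from 84.5 to 27.0, 58.6 and 33.0 FPKM with SP2509, UNC0642 and both inhibitors. With Dox it rose from 33.8 to 52.6 FPKM in shLSD1 cells but fell from 41.0 to 20.2 FPKM in shG9a cells, as FADS1 did. The mitochondrial citrate carrier SLC25A1 was not called with SP2509 (31.2 to 36.0 FPKM). It rose from 31.2 to 47.3 FPKM with UNC0642 and from 41.7 to 67.7 FPKM in shG9a cells. CBR4, of mitochondrial fatty acid synthesis, fell from 6.83 to 1.42 and 2.09 FPKM with SP2509 and both inhibitors. OXSM, MECR and MCAT, of the same mitochondrial pathway, are also among the genes down with SP2509. OLAH, a thioesterase, rose from 0.0540 to 2.08 FPKM with both inhibitors. ACSS1, the mitochondrial counterpart of ACSS2, went from 0.459 to 1.18 FPKM in shG9a cells. With UNC0642 1 was up and 3 were down, in shLSD1 cells 4 of 10 were up and 0 down, and in shG9a cells 4 of 11 were up and 1 down, with medians of 0.28 in both lines against 0.13 and 0.18 over all genes.

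The other elongases and desaturases gave counts near those of all genes with SP2509 and with both inhibitors. Of 13 tested, 3 were up and 6 down with SP2509 (21.0% and 39.9% of all genes), 2 up and 2 down with UNC0642, 4 up and 5 down with both inhibitors (31.4% and 31.7%), 3 up and 3 down in shLSD1 cells, and 3 up and 2 down in shG9a cells. SCD5, a desaturase related to SCD, ran opposite to it with SP2509, rising from 4.76 to 13.3 FPKM. It also rose to 7.55 and 7.43 FPKM with UNC0642 and both inhibitors, and it fell from 5.87 to 3.15 FPKM in shLSD1 cells. ELOVL7 rose from 3.96 to 10.2, 7.00 and 14.5 FPKM with SP2509, UNC0642 and both inhibitors, and from 4.20 to 7.08 FPKM in shLSD1 cells. FADS3, next to FADS1 and FADS2, fell from 13.5 to 6.58 and 9.58 FPKM with SP2509 and both inhibitors and also with Dox, from 24.9 to 17.2 and from 25.3 to 13.6 FPKM in the shLSD1 and shG9a lines. ELOVL5, which lengthens polyunsaturated chains, fell from 75.4 to 48.2, 53.1 and 41.1 FPKM with SP2509, UNC0642 and both inhibitors, and rose from 41.9 to 57.4 FPKM in shLSD1 cells. HACD2 and HACD3 carry out the dehydration step of elongation. HACD2 fell from 66.5 to 41.5 and 28.5 FPKM with UNC0642 and both inhibitors and from 38.7 to 23.6 FPKM in shG9a cells, where HACD3 rose from 16.1 to 26.5 FPKM. HACD3 fell to 17.6 FPKM from 28.9 with SP2509.
ELOVL4, an elongase of very long chains, was down with SP2509 alone, from 8.29 to 5.17 FPKM, and up with both inhibitors, at 29.0 FPKM. ELOVL1, which lengthens saturated chains, rose from 30.4 to 47.2 and 49.5 FPKM with SP2509 and both inhibitors and from 39.6 to 67.4 FPKM in shG9a cells.

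Acyl-CoA synthetases and triglyceride genes gave 4 of 15 up and 5 down with SP2509 (21.0% and 39.9% of all genes), 5 of 17 up and 0 down with UNC0642, and 9 of 16 up and 4 down with both inhibitors (31.4% and 31.7%). In the shLSD1 line 9 of 16 were up and 1 was down, and in shG9a cells 6 of 15 were up and 2 were down. PNPLA3, a lipid droplet protein and SREBP1 target, fell from 9.64 to 4.97 FPKM with SP2509 and rose from 3.99 to 9.76 and from 4.30 to 10.8 FPKM with Dox in the shLSD1 and shG9a lines. GPAM, which starts glycerolipid synthesis, fell from 3.03 to 1.13 FPKM with SP2509 and to 1.49 with both inhibitors, and rose from 1.11 to 1.85 FPKM with Dox in shG9a cells. LPIN1, a phosphatidate phosphatase, fell from 7.44 to 5.07 FPKM with SP2509 but rose to 13.4 with both inhibitors, and it rose from 2.77 to 6.16 and from 2.92 to 4.17 FPKM in the 2 lines. LPIN3, a related phosphatidate phosphatase, rose from 2.52 to 5.78, 5.95 and 4.88 FPKM with SP2509, UNC0642 and both inhibitors, and fell from 15.2 to 5.46 and from 12.0 to 6.37 FPKM in the shLSD1 and shG9a lines.

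Genes of fatty acid uptake and oxidation gave 2 of 17 up and 6 down with SP2509 (21.0% and 39.9% of all genes), 6 of 18 up and 0 down with UNC0642 (18.2% and 16.9%), 5 of 18 up and 10 down with both inhibitors (31.4% and 31.7%), 5 of 18 up and 4 down in shLSD1 cells, and 6 of 20 up and 4 down in shG9a cells. CD36, a fatty acid transporter, fell from 3.69 to 0.451 FPKM with both inhibitors and rose from 3.77 to 8.82 and from 3.42 to 16.1 FPKM in the 2 lines. PPARD, a fatty acid sensor, rose from 6.59 to 10.5, 14.2 and 35.7 FPKM with SP2509, UNC0642 and both inhibitors. CPT1A, which admits fatty acids to mitochondria for oxidation, was called in the same directions as FASN, going from 47.9 to 19.3 and 36.1 FPKM with SP2509 and both inhibitors, from 20.3 to 28.5 FPKM in shLSD1 cells and from 22.6 to 66.7 FPKM in shG9a cells. The transporter SLC27A4 fell from 7.68 to 1.10 FPKM with SP2509 but was up with UNC0642 (log2 ratio 0.47) and at 13.3 FPKM with both inhibitors, and it rose from 3.46 to 7.73 and from 4.39 to 15.3 FPKM in the 2 lines. ANGPTL4, a secreted lipase inhibitor, fell from 14.5 to 0.437 and from 13.9 to 0.116 FPKM in the 2 lines, and with UNC0642 and both inhibitors it rose from 0.386 to 2.03 and 4.20 FPKM.

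Of the cholesterol synthesis genes, which respond mainly to SREBP2, 12 were tested as a comparator. With Dox 9 were up and 0 down in each line, with median log2 ratios of 0.71 and 0.78 against 0.13 and 0.18 over all genes, while 6 were down and 1 was up with SP2509 (median -0.37 against -0.21) and 7 down and 1 up with both inhibitors. With UNC0642 1 was up and 1 was down. LSS, which closes the sterol rings, fell from 18.0 to 5.20 and 7.42 FPKM with SP2509 and both inhibitors, and rose from 12.1 to 20.4 FPKM in shLSD1 cells and from 14.0 to 34.7 in shG9a cells. HMGCS1, an early enzyme of the pathway, rose from 51.1 to 100.1 FPKM in shLSD1 cells and was also up in shG9a cells, with a log2 ratio of 1.36, and it was down with both inhibitors, with -0.41. The median decrease with SP2509 was smaller than that of the 9 fatty acid genes (-1.03), a difference that was not tested.

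**Figure D4:**
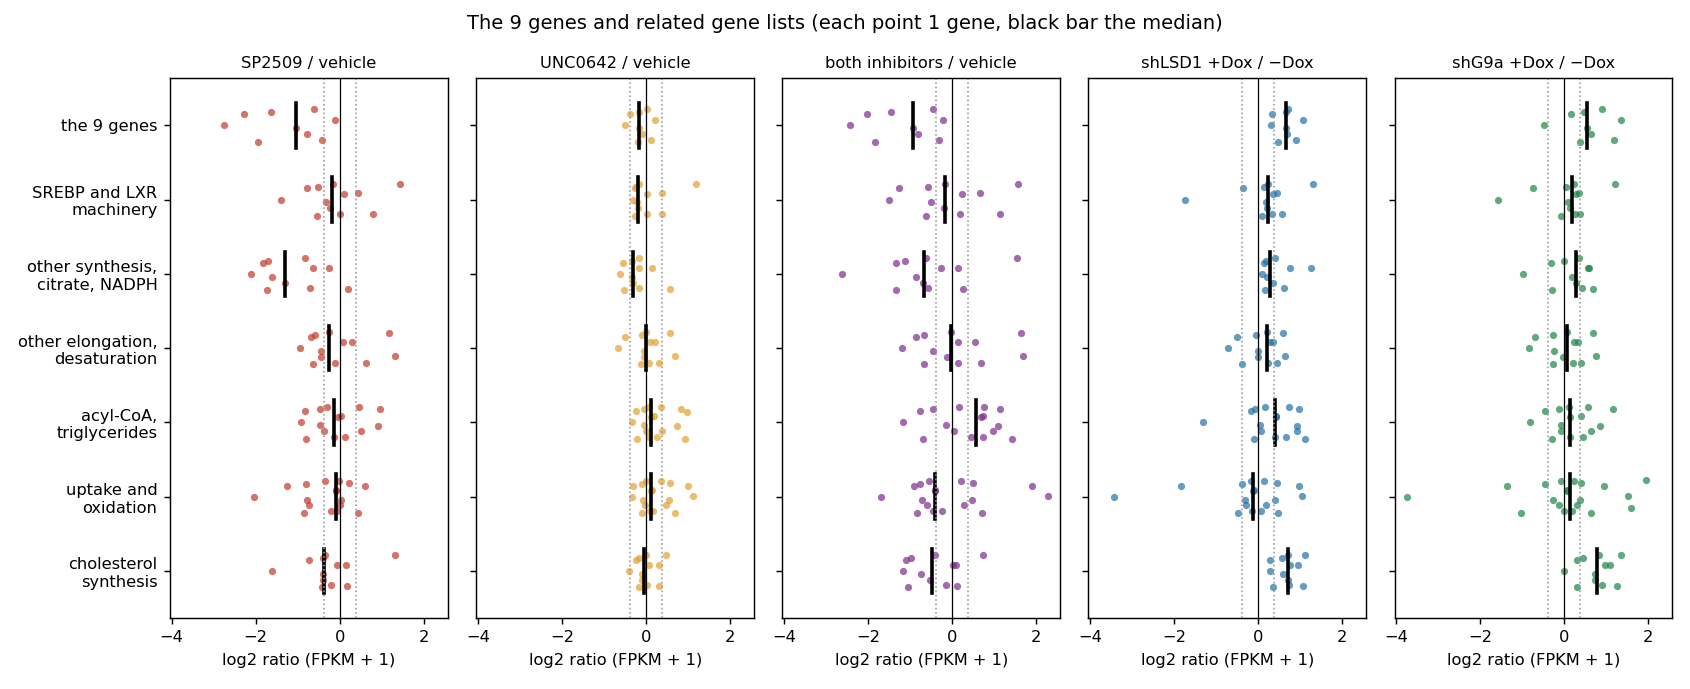
Log2 ratio of (FPKM + 1) for the 9 genes and 6 related lists (rows) in the 5 comparisons (panels), each point being 1 tested gene, the black bar the median and the dotted lines 1.3-fold. With SP2509 the medians lie at -1.03 for the 9 genes and at -1.29 for the list of other synthesis, citrate and NADPH genes. In shLSD1 cells they lie at 0.65 for the 9 genes and at 0.71 for cholesterol synthesis.

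Among 4580 genes with at least 5 FPKM in all 8 libraries, those closest to the median profile of the 9 genes over the 5 comparisons were SFXN4, IVD, BRCC3, PYM1 and ATP5A1. Their root mean square differences from that profile ranged from 0.0981 to 0.138 on the log2 scale. Of the 9 genes, 7 reached that level in all libraries, and ACSS2 came closest to the profile (0.271, rank 87), while FASN was the farthest (0.986, rank 3499).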

How the data were processed

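Paired-end reads (150 bases) were obtained from total RNA of the 8 libraries. The authors filtered the reads, mapped them to GRCh38 (annotation 87) and deposited FPKM values in 2 tables, of 31582 genes for the inhibitors and 28942 for the knockdowns. The aligner, the counting tool and the use of strand are not given in the sources used here. Groups came from the sample titles. The members and gene lists were chosen with earlier results of these data known. The named genes are the 9 members, up to 3 listed genes per direction and comparison with the largest change among those called (a selection of these, made after the values were seen, is printed), the targets, and the 5 genes nearest to the members' median profile.

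From the deposited FPKM values, log2 ratios of (FPKM + 1) were computed with numpy 2.4.6 and pandas 2.3.3 in Python 3.11.15. In genes with 1 exon, values are whole multiples of 1 read, which gave each library total (15662035 to 17889466), and all such values under 500 reads were whole within 0.001. Reads of each member used the length that makes all its values whole and lies nearest to GENCODE 44. Exact binomial 95% intervals (scipy 1.17.1) cover counting error only. No test of a difference between conditions was possible, as each condition has 1 library. An exact binomial p of the estimated reads (below 0.05) served only as an added criterion in 1 alternative setting. The steps were tested on simulated data. The comparisons of the combination with each single inhibitor, of vehicle with the uninduced lines, and the counts of reversed genes were added after seeing the data. Columns of sequence annotation were not used. Some genes of the lists are not reported by name here.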

Additional observations from a re-analysis of the deposited data

Results flagged for a closer look

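FADS1 was called in opposite directions by Dox in the 2 lines, with a log2 ratio of 0.71 in the shLSD1 line and -0.49 in the shG9a line. The same was seen for ME1, with 0.62 and -0.99. KDM1A, the target of the shLSD1 hairpin, had -1.89 in the shLSD1 line and 0.43 in the shG9a line. Each value compares 1 library with 1 library, and the difference between the lines was not tested.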

How the results depend on the processing

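No paired analysis was possible because each condition has 1 library and the labels carry no replicate numbers. At a fold threshold of 2, the genes called among the 9 were 5 down with SP2509, 0 down with UNC0642, 4 down with both inhibitors, 1 up in the shLSD1 line, and 2 up and 0 down in the shG9a line. With TMM scaling 1 gene was down with UNC0642 and 4 were up in the shG9a line. Of the genes down with SP2509 and up with Dox, reported as 7 in shG9a cells and 6 in both lines, 4 and 3 were left both when centred and with TMM scaling, alternatives chosen after seeing the data. With the mean of the 2 uninduced libraries as control, 0 were down in the shG9a line. The other counts stayed within 1.5 times the reported ones with a pseudocount of 0.1, no filter, a minimum of 5 FPKM, centring on the median, and an added exact binomial criterion on estimated reads. The filter settings could not change a count. All 9 genes passed 1 FPKM, and only FADS2, which was not called, reached 5 FPKM in neither library of a comparison. All called genes met the binomial criterion, which covers counting error only and is easily met at these read numbers. No called log2 ratio of the 9 genes changed sign under these alternatives. Over all genes, up calls were 34.5% of calls with SP2509, 66.8% in the shLSD1 line and 65.2% in the shG9a line, and with TMM scaling 49.5%, 45.0% and 43.5%. Depth limits ELOVL6 with SP2509 (212 reads) and FADS2 (368 to 498 reads per library).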
